A study of Homo sapiens with 6 samples.

Results

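The EGF receptor family and its ligands were examined as a set of 10 genes: the receptors EGFR, ERBB2, ERBB3 and ERBB4 and the ligands HBEGF, EREG, TGFA, BTC, NRG1 and AREG. The set was chosen by gene name, and each gene was read from the probe set that the array's annotation pairs with that gene alone. Of the 10 genes 9 were measured in this way, among 18417 genes in all, and AREG was not analysed here. The data were 6 arrays of the established human breast cancer line MDA-MB231: 3 of untreated parental cells, called control and labelled metastatic, and 3 of a stable G9a knockdown, labelled less metastatic. The knockdown is 1 clone and the control is the parental population, so the effects of clonal origin and of the knockdown cannot be told apart. Both kinds of cell were grown in serum-containing medium and harvested while dividing. How the knockdown was made is not given in the sources used here. Nothing in the labels states that replicates were separate cultures, so p-values measure the spread between these arrays, which may be technical.

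EGF-type ligands are made as membrane proteins and are released from the cell surface by metalloproteases, ADAM17 foremost. A ligand that binds its receptor makes receptors pair and phosphorylate each other, and adaptors then carry the signal into the RAS-MAP kinase and PI3K pathways. ERBB2 has no known ligand and works as a partner, and ERBB3 has a weak kinase and depends on a partner. In breast cancer the family is best known through amplified ERBB2 and through EGFR in triple-negative tumours, the class that MDA-MB231 represents.

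The target of the knockdown, EHMT2, which encodes the histone H3 methyltransferase G9a, was lower in the clone. It read 10.21, 10.27 and 9.93 (log2 intensity) on control arrays 1 to 3 and 9.66, 9.59 and 9.51 on the knockdown arrays, without overlap (difference -0.55 ± 0.10, SE; limma, adjusted p = 0.0259). Of the 6 fits with 1 array left out, 1 passed for EHMT2, that lacking control replicate 3, with adjusted p over the 6 from 0.0101 to 0.122. All 10 markers of a basal, mesenchymal line lay outside the third of genes with the lowest means, while 5 of 10 luminal markers lay in it, as did 6 of 11 markers of leukocytes, endothelium and fibroblasts. In each list 1 marker rose, where 1.28% of all genes did. These were S100A4 (0.49) among the basal, the epithelial cadherin gene CDH1 (0.45) among the luminal and the endothelial cadherin gene CDH5 (0.71) in the last. CDH1 lay in the third of genes with the lowest means, while S100A4 and CDH5 did not. Of the 6 fits with 1 array left out, S100A4 passed in 5, CDH5 in 2 (without control replicate 1 or 3) and CDH1 in 1 (without control replicate 3). Differences were negative for 5 of 10 basal, 3 of 10 luminal and 2 of 11 other markers. At an unadjusted p below 0.05 in limma, 2 basal markers were higher and 2 lower. Of the luminal 1 was higher and 2 lower, and of the last list 3 higher and 0 lower. KRT19, a luminal marker, was at -0.38 without passing (limma, adjusted p = 0.0800). With array weights 2 basal markers rose and 1 fell, 1 luminal rose and 3 fell, and 5 of the last list rose. The mean level of the last list ran from 6.59 to 6.76 in control and from 6.79 to 6.89 in the knockdown. The part of these markers in the results that follow was not tested. Control replicate 3 lay apart from the other control arrays for several members. Values without it are given for many of the genes named, and other results may depend on it too.

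Among the 9 members 1 fell, the ligand gene HBEGF, and none rose in the knockdown (limma across all genes, adjusted p below 0.05). Over all genes tested 1.78% fell and 1.28% rose, 3.05% in either direction. At an unadjusted p below 0.05 there were 2 members lower, HBEGF and EGFR, and 2 higher, TGFA and NRG1, where 9.23% of all genes were lower and 10.1% higher at that threshold. These were also the 4 members whose arrays did not overlap between the groups, 2 lower and 2 higher, where 12.7% of all genes were lower without overlap and 14.3% higher. The median difference of the members was 0.06 on the log2 scale, that of all genes 0.03.

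The upstream sequences of HBEGF and EREG are shown first, because HBEGF was the member that fell and EREG had a difference of opposite sign and passed when control replicate 3 was left out. Each is the run of 250 bases before the transcript start in RefSeq (build GRCh38.p14), written 5′ to 3′ on the strand of the gene. HBEGF lies on the minus strand at chr5:140346604-140346853 and EREG on the plus strand at chr4:74364895-74365144. Capitals mark GGGCGG, the core of the SP1 motif, on either strand.
HBEGF: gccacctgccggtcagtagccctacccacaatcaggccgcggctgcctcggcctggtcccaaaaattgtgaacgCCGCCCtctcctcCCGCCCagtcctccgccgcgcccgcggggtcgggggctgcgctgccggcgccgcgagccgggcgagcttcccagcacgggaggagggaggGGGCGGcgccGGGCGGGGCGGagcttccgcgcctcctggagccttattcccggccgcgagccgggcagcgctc
EREG: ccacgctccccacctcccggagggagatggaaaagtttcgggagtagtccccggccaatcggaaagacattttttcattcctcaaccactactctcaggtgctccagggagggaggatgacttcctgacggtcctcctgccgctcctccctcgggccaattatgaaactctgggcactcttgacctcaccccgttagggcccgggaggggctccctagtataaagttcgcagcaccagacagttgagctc

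The HBEGF sequence held 33 CpG dinucleotides and 76.4% G plus C, with more CpG than 91.9% of all 35116 upstream windows. The EREG sequence held 11 CpG and 58.0% G plus C, both equal to the median over all windows. GGGCGG occurred 5 times in the HBEGF window, with 2 of the matches overlapping by a base, and 0 times in that of EREG, while 42.6% of all windows held it at least once. Neither window held TGANTCA, the motif of the AP-1 factors that FOS belongs to (6.57% of all windows), or GCGNGGGCG, the motif of EGR1 (8.41%), on either strand. The motifs were counted with overlaps allowed, and a match is a description of the letters. Windows were counted for 8 of the 10 genes, and 2 of them, EGFR and TGFA, had 2 starts. ERBB3 had no window, and windows on chromosome 8, which holds NRG1, were left out of the count of members. The other windows held from 1 CpG, at the downstream start of EGFR, to 27, at 1 start of TGFA, so HBEGF had the most among the windows counted.

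HBEGF encodes heparin-binding EGF-like growth factor, a ligand of EGFR and ERBB4 whose membrane form is also the receptor for diphtheria toxin. Control arrays 1 to 3 read 12.49, 12.41 and 12.47 and knockdown arrays 1 to 3 read 12.04, 12.12 and 12.09 (log2 intensity). All knockdown arrays lay below all control arrays, and the spread within each group was small beside the gap. The means were 12.46 ± 0.04 and 12.09 ± 0.04 (SD, n = 3), a difference of -0.37 ± 0.06 (SE) or 0.774 of the control level (limma, adjusted p = 0.0195; 95% interval -0.51 to -0.24). An exact permutation test of this gene alone, two-sided, gave p = 0.1, the smallest that 3 arrays against 3 allow. The size of the difference varied little when 1 array was left out, from -0.39 to -0.35, but with fewer arrays the adjusted p passed only without control replicate 3 (0.0324) and ran from 0.0564 to 0.0983 in the other 5 fits.

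**Figure D1:**
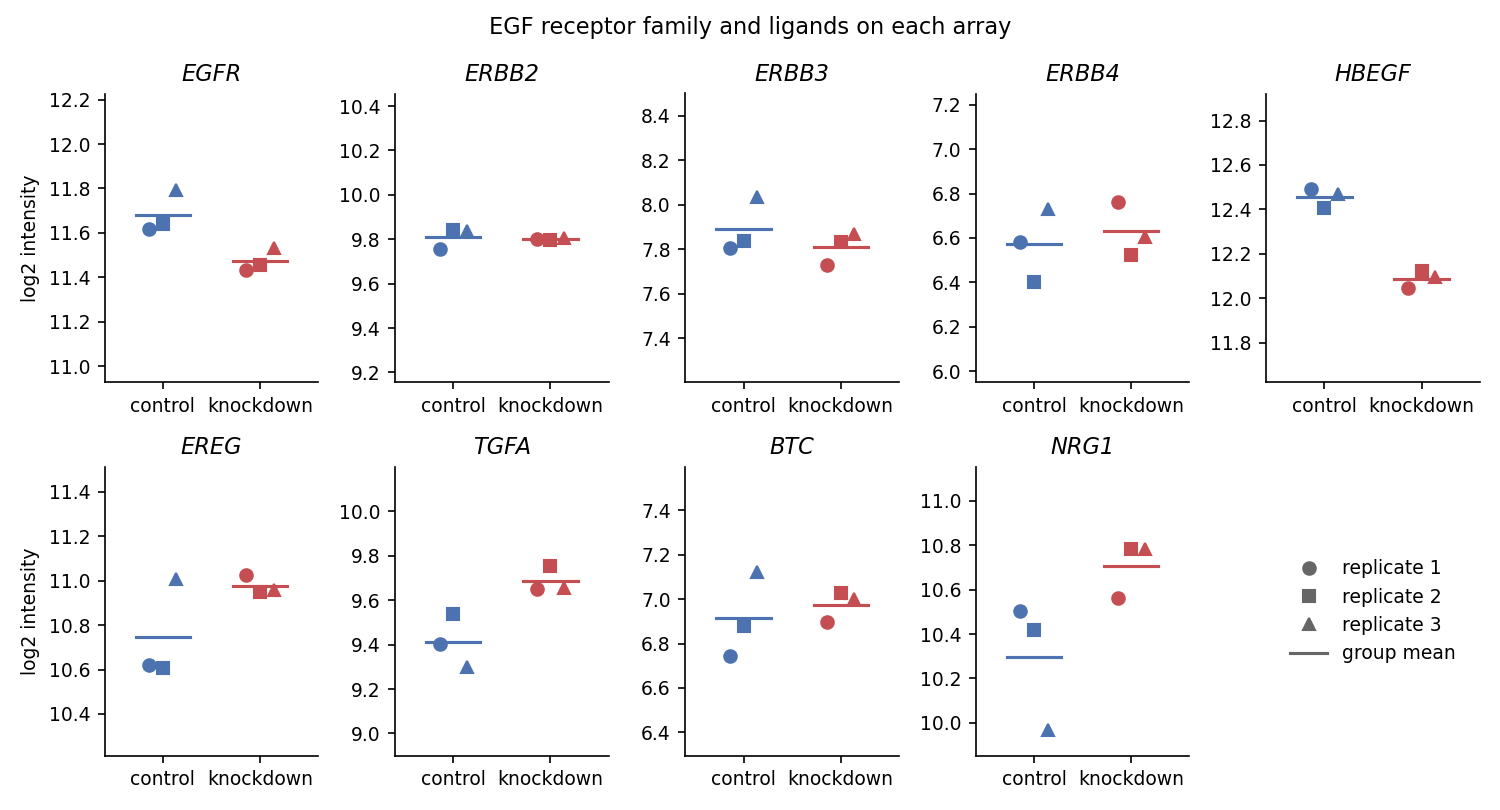
Log2 intensity of each measured member on the 6 arrays (vertical axes, each spanning the same 1.3 log2 units), with control in blue, knockdown in red, a marker shape for each replicate number and a line at the group mean. HBEGF and EGFR are lower and TGFA and NRG1 higher on all knockdown arrays, and EREG, ERBB3 and BTC have their highest control value on replicate 3.

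The remaining EGFR ligands had positive differences, and none of them passed. TGFA encodes transforming growth factor alpha, which binds EGFR. It read 9.40, 9.54 and 9.30 on the control arrays and 9.65, 9.75 and 9.66 on the knockdown arrays. The knockdown arrays all lay higher, with the closest pair, control replicate 2 and knockdown replicate 1, not far apart. The difference was 0.27 ± 0.08 (SE; limma, adjusted p = 0.101; 95% interval 0.10 to 0.45), and it ran from 0.21 to 0.33 with 1 array left out.

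EREG encodes epiregulin, a ligand of EGFR and ERBB4. Its control arrays read 10.62, 10.61 and 11.01 and its knockdown arrays 11.03, 10.95 and 10.96. Control replicate 3 stood among the knockdown arrays, and the other control arrays lay below all of them. With the 6 arrays the difference was 0.23 ± 0.11 (SE; limma, adjusted p = 0.288; 95% interval -0.02 to 0.48). Without control replicate 3 it was 0.36 and passed (adjusted p = 0.0300), which made EREG the 1 member to rise in that fit, and with any other array left out it was between 0.16 and 0.25.

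BTC encodes betacellulin, which binds EGFR and ERBB4. It read 6.74, 6.88 and 7.12 in control and 6.90, 7.03 and 7.00 in the knockdown, so the groups overlapped. The difference was 0.06 ± 0.10 (SE; adjusted p = 0.781; 95% interval -0.17 to 0.29), with a negative sign without control replicate 1 (-0.025) and 0.16 without control replicate 3. BTC was in the third of genes with the lowest means, and no background level was used to judge such values.

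NRG1 encodes neuregulin 1, the ligand of ERBB3 and ERBB4, and with all 6 arrays and the brighter of its 2 probe sets it had the largest difference of the 9 members, without passing. Control arrays 1 to 3 read 10.50, 10.42 and 9.97 and the knockdown arrays 10.56, 10.78 and 10.78. The groups did not overlap, but control replicate 1 and knockdown replicate 1 lay close together and control replicate 3 lay far below the rest. The difference was 0.41 ± 0.14 (SE; limma, adjusted p = 0.151; 95% interval 0.10 to 0.73), and it was 0.25 without control replicate 3, smaller than those of HBEGF (-0.36) and EREG (0.36) in that fit. With the mean of its probe sets it was 0.34, smaller than that of HBEGF. A second NRG1 probe set read 9.87, 9.78 and 9.54 in control and 10.00, 10.05 and 9.96 in the knockdown, a difference of 0.28 in the same direction. Tested among all probe sets, the 2 had adjusted p of 0.292 and 0.262. The genes with the pattern most like that of NRG1 over the 6 arrays were VPS52, OR10J1, HSDL2, NBN and LRRCC1, with Pearson r from 0.995 to 0.999; these points share the same arrays, and the likeness includes the low value of control replicate 3.

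Of the receptors 3 of 4 had negative differences, and none passed. EGFR, the receptor for HBEGF, TGFA, EREG, BTC and AREG, read 11.62, 11.64 and 11.79 in control and 11.43, 11.46 and 11.53 in the knockdown. All knockdown arrays lay below all control arrays, and control replicate 3 was the highest. The means were 11.68 ± 0.10 and 11.47 ± 0.05 (SD, n = 3) and the difference was -0.21 ± 0.07 (SE; limma, adjusted p = 0.148; 95% interval -0.37 to -0.05). It was negative in each of the 6 fits with 1 array left out, from -0.24 to -0.16, with adjusted p from 0.192 to 0.320.

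ERBB2, the partner receptor that is amplified in HER2-positive tumours, differed least. It read 9.76, 9.84 and 9.84 in control and 9.80, 9.80 and 9.80 in the knockdown, with the knockdown arrays inside the control range. The difference was -0.01 ± 0.06 (SE; adjusted p = 0.932), and its 95% interval of -0.14 to 0.12 bounds what these arrays leave possible. Its sign changed without control replicate 2 or 3 (0.0019 and 0.0016).

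ERBB3, a neuregulin receptor, read 7.80, 7.84 and 8.03 in control and 7.73, 7.83 and 7.87 in the knockdown. The groups overlapped, and the difference of -0.08 ± 0.08 (SE; adjusted p = 0.621; 95% interval -0.26 to 0.10) was -0.01 without control replicate 3. ERBB4, which binds neuregulins, HBEGF, EREG and BTC, read 6.58, 6.40 and 6.73 in control and 6.76, 6.52 and 6.60 in the knockdown. These groups overlapped too, with a difference of 0.06 ± 0.10 (SE; adjusted p = 0.786; 95% interval -0.17 to 0.28) that was -0.025 when control replicate 2 was dropped and -0.0070 when knockdown replicate 1 was. ERBB4, like BTC, lay in the third of genes with the lowest means.

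**Figure D2:**
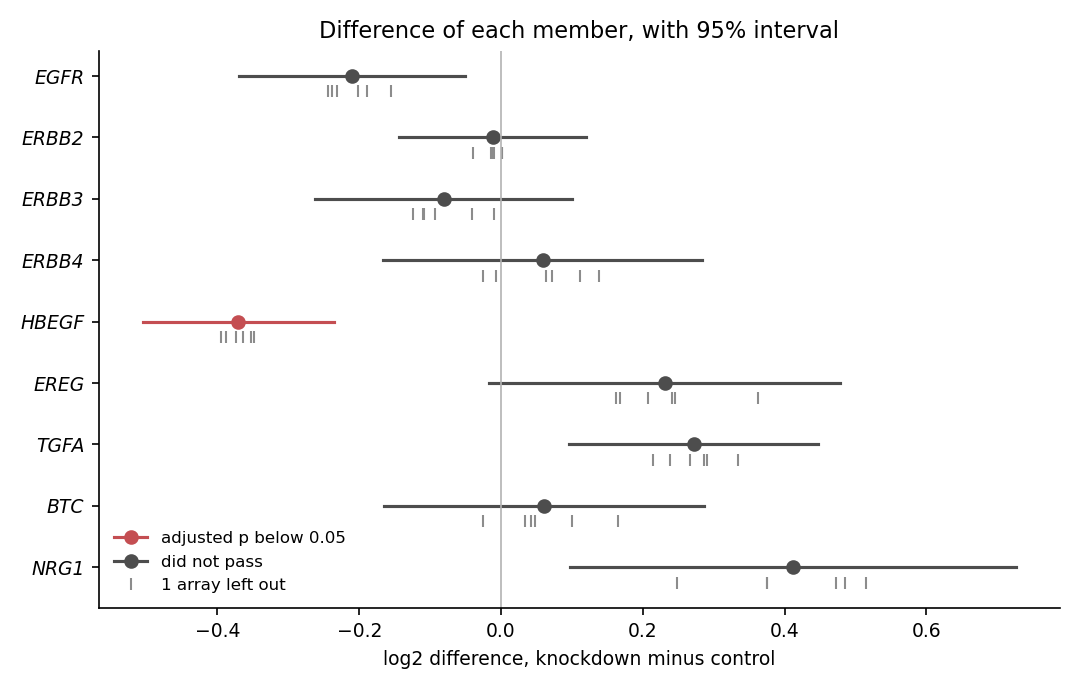
Log2 difference, knockdown minus control, of each member (horizontal axis) with its 95% interval from limma as a bar, n = 3 arrays per group, and grey ticks for the fits with 1 array left out. HBEGF, in red, passed at an adjusted p of 0.05; the intervals of EGFR, TGFA and NRG1 do not reach 0 but these genes did not pass after adjustment over all genes, and the tick of EREG farthest to the right is the fit without control replicate 3.

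Where the members lie in the genome was compared with their differences, through the 10 tested genes on each side of each member in the gene order of GRCh38.p14. Around HBEGF, on chromosome 5, 16 of 20 neighbours had negative differences, where 40.4% of all genes had one, and their median was -0.16, against 0.03 for all genes. Of these neighbours 3 fell and 0 rose, where 1.78% of all genes fell: CYSTM1 (-0.60), DNAJC18 (-0.49) and PFDN1, a prefoldin subunit gene that adjoins HBEGF among the tested genes (-0.27). HBEGF at -0.37 was thus lower than the median of its neighbours, and 2 of the 20 lay below it. With 1 array left out the median of the neighbours ran from -0.17 to -0.12, and the number that fell was 4 when control replicate 3 was dropped, 2 for control replicate 1, 1 for knockdown replicate 2 and 0 for each of control replicate 2, knockdown replicate 1 and knockdown replicate 3. Over these 6 fits DNAJC18 passed in 3, CYSTM1 in 2 and PFDN1 in none, and CYSTM1 was at -0.47 without control replicate 3. NRG2, another neuregulin gene, is one of the neighbours of HBEGF and was at -0.0029 with all arrays. The part of the neighbourhood in the fall of HBEGF was not tested.

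EREG, BTC, EPGN and AREG lie together on chromosome 4, beside the CXC chemokine genes. Among the 20 neighbours of EREG 4 fell and 0 rose, with a median of -0.05, where 1.78% of all genes fell. Of these neighbours 11 had negative and 9 positive differences. They were the chemokine gene CXCL1 (-1.34), ODAPH (-1.09), PARM1 (-0.60) and G3BP2, which encodes a stress granule protein (-0.30). Of the 6 fits with 1 array left out, PARM1 passed in 5, ODAPH in 4 and G3BP2 in none. CXCL1 passed in 1, that without control replicate 3, where it was at -0.96. The number that fell was 2 when control replicate 1, control replicate 2 or knockdown replicate 2 was dropped, 1 for knockdown replicate 1 and 0 for knockdown replicate 3. The ligand genes inside this stretch had positive differences, with EREG at 0.23, BTC at 0.06 and EPGN at 0.01, none of which passed. BTC and EPGN are among the 9 positive neighbours of EREG. The neighbours of TGFA on chromosome 2 had a median of 0.09, with 15 of 20 positive, and those of EGFR and NRG1 had medians of -0.0023 and 0.0012, with no gene called in these 3 neighbourhoods. Around ERBB2, 13 of 20 neighbours were negative (median -0.03) and 1 fell, the lymphoid transcription factor gene IKZF3 (-0.54), which passed with 1 array left out only when that array was control replicate 3. Around ERBB4, 8 of 20 were negative (median 0.07) and 1 fell, the microtubule protein gene MAP2 (-0.39), which passed in none of those 6 fits. Around ERBB3, 6 of 20 were negative (median 0.09) and none was called. The neighbours of BTC are largely those of EREG, and the same number, 4, fell.

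**Figure D3:**
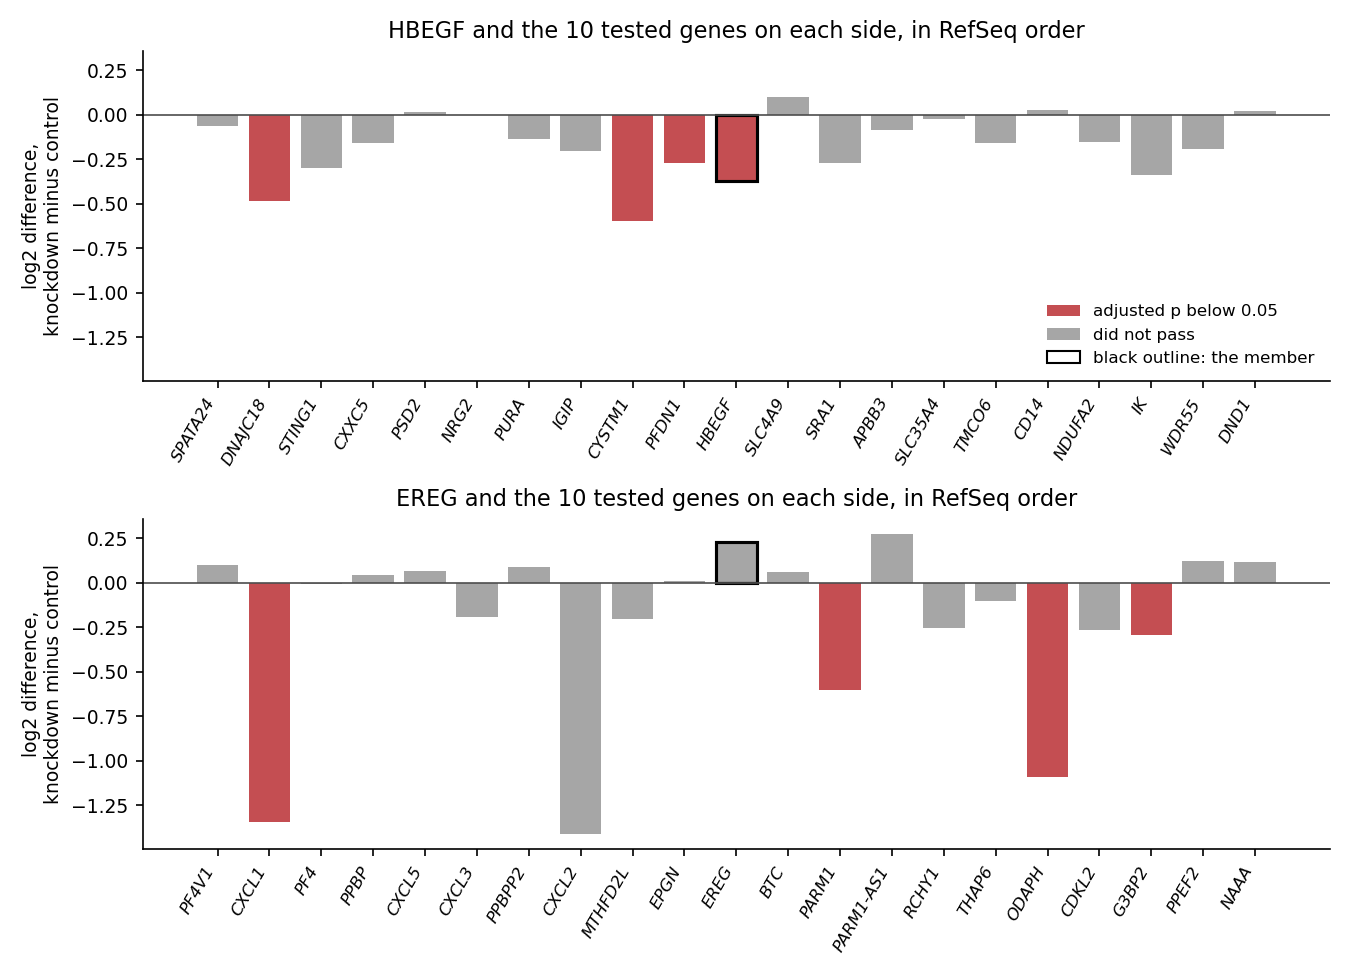
Log2 difference, knockdown minus control (vertical axis), of HBEGF and EREG, outlined in black, and of the 10 tested genes on each side in RefSeq order; red bars passed at an adjusted p of 0.05. HBEGF is one of 4 red bars in a stretch where 16 of its 20 neighbours are below 0. EREG, between the falls of CXCL1 and PARM1, is above 0, as are 9 of its 20 neighbours.

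The other ligand genes of the family did not pass. All 5 were measured, EGF, EPGN, NRG2, NRG3 and NRG4, and all had overlapping groups. EGF, the prototype EGFR ligand, had the largest difference (0.17, adjusted p = 0.277), followed by NRG4 (0.09, adjusted p = 0.547), a ligand of ERBB4. None of the 5 had an unadjusted p below 0.05 in limma, and 3 of the 5 lay in the third of genes with the lowest means.

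Of 14 genes that release or carry the ligands, none passed, and 5 were higher and 0 lower at an unadjusted p below 0.05, the threshold that 10.1% and 9.23% of all genes met. The 5 became 3 without control replicate 1 or knockdown replicate 2. The metalloprotease genes ADAM12 (0.33, adjusted p = 0.0576) and ADAM8 (0.32, adjusted p = 0.0609) had the largest differences. ADAM12 read 8.72, 8.56 and 8.63 in control and 8.96, 9.06 and 8.87 in the knockdown, and ADAM8 read 9.88, 10.08 and 10.08 against 10.37, 10.29 and 10.32, both without overlap. ADAM17, the main sheddase of EGFR ligands, was at -0.11 (adjusted p = 0.410) and ADAM10 at 0.06 (adjusted p = 0.628), named here for their role. The list's median was 0.05. With array weights 5 of its members rose, with an intensity trend 2 and with the dimmest genes left out 2.

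Between the receptors and the nucleus, none of 13 adaptor and RAS-MAP kinase genes passed, with a median of -0.05. At an unadjusted p below 0.05, where 10.1% of all genes were higher and 9.23% lower, 0 of the list were higher and 2 lower. These were the docking protein genes GAB1 (-0.31, adjusted p = 0.0638) and GAB2 (-0.29, adjusted p = 0.158; -0.18 without control replicate 3). GAB1 read 9.84, 9.87 and 9.77 in control and 9.38, 9.59 and 9.56 in the knockdown, without overlap. GAB1 was read from the brighter of 2 probe sets, and with their mean only 1 gene of the list was lower at an unadjusted p below 0.05. In the list 1 gene fell with quantile normalization, with an intensity trend or with the dimmest genes left out, and 3 fell with array weights. None of 13 genes of the PI3K, phospholipase C, SRC and STAT arm passed either, at a median of -0.04. At an unadjusted p below 0.05, 2 were higher and 1 lower, where 10.1% and 9.23% of all genes were. The higher were PRKCA (0.17; 0.12 without control replicate 3) and AKT2 (0.15; 0.11 without it), and the lower was STAT5B. With all arrays the transcription factor gene STAT5B and the PI3K regulatory subunit gene PIK3R1 had the largest differences. STAT5B was at -0.26 (limma, adjusted p = 0.131), and at -0.18 without control replicate 3. PIK3R1, which was not below 0.05 unadjusted with all arrays, was at -0.22 (limma, adjusted p = 0.310), and at -0.34 without that array. With array weights 1 member of that arm rose and 2 fell.

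None of 18 genes that restrain or degrade the receptors passed, with a median of -0.04. At an unadjusted p below 0.05, 2 were lower and 0 higher, where 9.23% and 10.1% of all genes were. With all arrays CBLB, a ubiquitin ligase gene, had the largest difference (-0.23, adjusted p = 0.385), but its value of 10.93 on control replicate 3 lay far above 10.47 and 10.38 on the other control arrays. Without that array CBLB was at -0.066, and the lowest value in the list was -0.15. SPRY2, a Sprouty feedback inhibitor gene, was at -0.19 (adjusted p = 0.256), and at -0.10 without control replicate 3. ERRFI1, which encodes a direct inhibitor of EGFR, is named for its role and read 12.82, 12.83 and 13.23 in control and 12.72, 12.77 and 12.84 in the knockdown (-0.18, adjusted p = 0.410; -0.048 without control replicate 3).

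Among 19 genes known to respond to MAP kinase signalling, 3 fell, 1 rose and 15 did not pass, where 1.78% of all genes fell and 1.28% rose. The list was chosen with earlier results of these data known, so its counts beside these shares are only a description. The median of the list was -0.02. EGR1, an immediate early transcription factor gene, read 11.05, 11.14 and 11.49 in control and 10.33, 10.34 and 10.15 in the knockdown (-0.95; limma, adjusted p = 0.00977). SPRY4, another Sprouty inhibitor gene, fell from 11.25, 11.29 and 11.49 to 10.94, 10.97 and 10.71 (-0.47, adjusted p = 0.0388), and FOS, the AP-1 subunit gene, from 8.78, 8.81 and 8.70 to 8.40, 8.36 and 8.30 (-0.41, adjusted p = 0.0164). CCNE1, the cyclin E1 gene, rose by 0.34 (adjusted p = 0.0481). None of these 4 groups of arrays overlapped. Without control replicate 3 EGR1 was at -0.82, SPRY4 at -0.40, FOS at -0.44 and CCNE1 at 0.27.

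At an unadjusted p below 0.05, 8 of the 19 output genes were lower and 3 higher, where 9.23% and 10.1% of all genes were. The groups of arrays did not overlap for 13 of the 19, 8 lower and 5 higher, where 12.7% and 14.3% of all genes were without overlap. None of the 19 lay in the third of genes with the lowest means, which the shares of all genes include. Other lists also had many genes without overlap: 7 of 10 basal markers, 7 of 13 genes of the PI3K arm and 7 of 14 shedding genes. The count was 6 of 18 for the genes that restrain the receptors, 5 of 13 for the adaptor list and 0 of 5 for the other ligands. The 8 at an unadjusted p below 0.05 became 5 without control replicate 3 or knockdown replicate 3. Beside those that fell, the lower genes were DUSP6 (-0.23), the phosphatase gene that ERK activity induces, DUSP5 (-0.22), IER3 (-0.23), LIF (-0.18) and MYC (-0.18), none of which passed. Without control replicate 3 DUSP6 was at -0.18, DUSP5 at -0.11, IER3 at -0.15, LIF at -0.13 and MYC at -0.12. The higher genes beside CCNE1 were the phosphatase gene DUSP4 (0.23) and the ephrin receptor gene EPHA4 (0.28; 0.17 without control replicate 3), which did not pass either. The calls in this list depended on the arrays: EGR1 missed the threshold without knockdown replicate 1 (0.0506) or 3 (0.0576), FOS missed it in each of the 6 fits on 5 arrays except the one lacking control replicate 3 (0.0202), and SPRY4 and CCNE1 missed it in all 6. When every probe set was tested, none of the list passed.

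**Figure D4:**
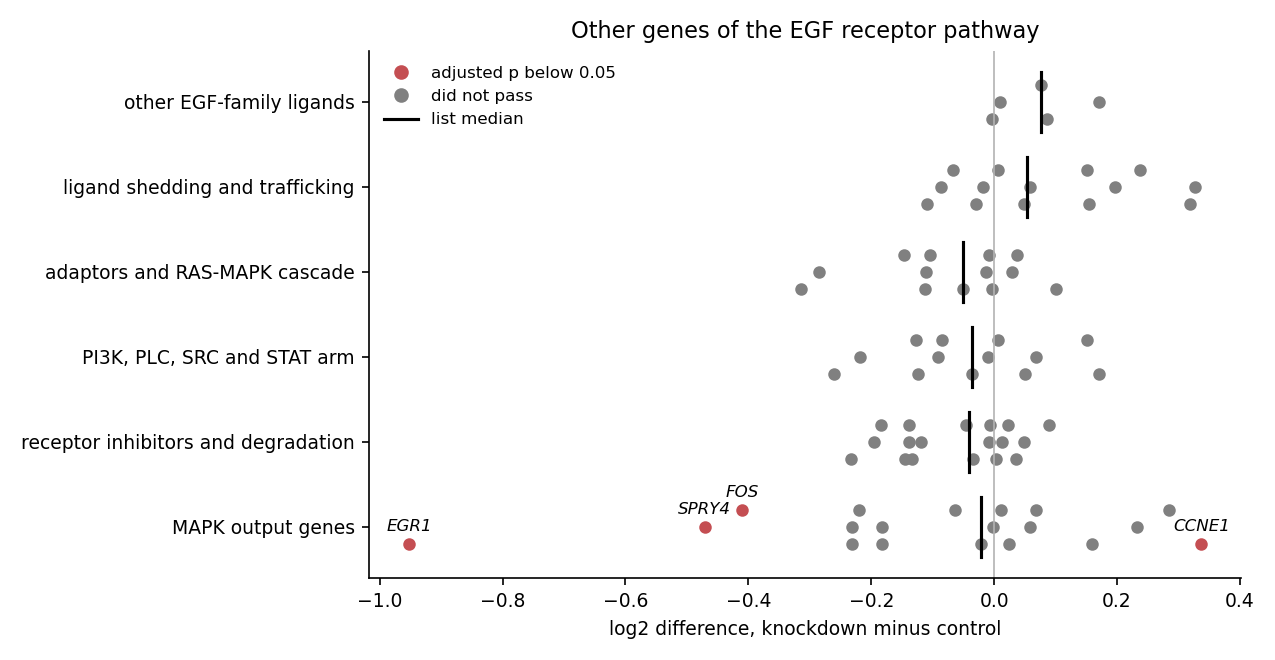
Log2 difference, knockdown minus control (horizontal axis), of the measured genes of 6 pathway lists, with 1 point per gene, list medians as black lines and genes that passed at an adjusted p of 0.05 in red with their names. The medians lie between -0.05 and 0.08, and the 4 genes that passed, EGR1, SPRY4, FOS and CCNE1, all belong to the MAP kinase output list.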

How the data were processed

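Biotin-labelled total RNA was read on single-colour arrays, per the labels. The authors deposited log2 values, 1 per probe set and array; the method of summary and scaling is not given in the sources used here, and the log base was inferred from the range (2.13 to 14.8). Array medians lay between 7.79 and 7.86. No detection call was used, and the number of arrays limits precision. In bulk RNA, a change in the mix of cells and a change per cell cannot be told apart. Intensities of different probe sets are compared only to choose the brightest probe set of a gene and to define the third of genes with the lowest means.

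Of 33297 probe sets, 19460 carried 1 gene symbol, 1754 several, and 12083 were unlisted. Symbols were updated through Entrez numbers to RefSeq (GRCh38.p14), and the probe set with the highest mean stood for each gene. Groups were compared with limma 3.58.1 in R 4.3.3 (lmFit, eBayes, no trend or covariate), with Benjamini-Hochberg adjustment over 18417 genes and a threshold of 0.05. The script was tested on simulated data. Upstream sequences came from RefSeq.

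Named were EHMT2, all members, up to 4 called genes of each pathway list (otherwise the largest 2) and called neighbours, at most 4 a member; a few more, given for their role, were chosen after their values were seen. Members and lists were chosen with earlier results of these data known. Alternatives were quantile normalization, median centring, leaving out dim genes (the third with the lowest means), array weights, a trend, every probe set, mean probe sets, a replicate block and leaving out arrays.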

Additional observations from a re-analysis of the deposited data

How the results depend on the processing

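The count of members that fell, 1 with all arrays, was 0 with every probe set tested, with the replicate block, and without control replicate 3 and knockdown replicate 1 together. HBEGF then had adjusted p of 0.0712, 0.0669 and 0.0569 at -0.37, -0.37 and -0.34, and it passed with quantile normalization, median centring, dim genes left out, array weights, an intensity trend and mean probe sets. The count that rose, 0, was 2 with array weights (EREG 0.33, NRG1 0.34) and 1 without that pair of arrays (EREG 0.34). With 1 array left out, both counts ran from 0 to 1. ERBB3 changed sign with array weights (0.0012) and without the pair (0.030), and ERBB2 without the pair (0.0012); with 1 array left out ERBB2 ran from -0.039 to 0.0019, ERBB4 from -0.025 to 0.14 and BTC from -0.025 to 0.16. EHMT2 missed the threshold with every probe set tested (adjusted p = 0.0957). Over all genes, 235 rose and 327 fell. The counts were 398 and 574 without dim genes, 1718 and 1610 with array weights, 434 and 649 with an intensity trend, 20 and 27 with every probe set tested and 154 and 189 without the pair. With 1 array left out they ran from 21 to 222 and from 23 to 313. The cause was not tested, other than that fewer arrays or more features enter some fits. The replicate numbers are not said to pair the arrays. Deviations from the group means correlated at -0.246, 0.122 and 0.0877 for the same number. With 3 arrays per group these deviations are not independent, so the values cannot decide whether arrays were paired. The replicate block gave 101 genes that rose and 116 that fell.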
